A study of Mus musculus with 7 samples.

Results

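The genes that sense oxygen and the subunits of hypoxia-inducible factor (HIF) were followed in fibroblasts sorted from mouse pancreatic tumors, that is in cancer-associated fibroblasts (CAFs). The set was chosen by name and held 9 genes, all of which were among the 12771 genes of the count table: the prolyl hydroxylases Egln1, Egln2 and Egln3, the asparaginyl hydroxylase Hif1an, the ubiquitin ligase subunit Vhl, the alpha subunits Hif1a, Epas1 and Hif3a, and the beta subunit Arnt. The tumors were grown orthotopically in the pancreas of young adult male C57BL/6 mice from KPC cells, which are mouse pancreatic cancer cells, and were collected 2 to 3 weeks after injection. The cancer cells carried a lentiviral short hairpin RNA against Brca2 (shBrca2, 4 libraries, replicates 1 to 4) or a non-targeting hairpin (shControl, 3 libraries, replicates 1, 2 and 4), each in the same KPC background. The hairpin was put into the cancer cells only, and the fibroblasts were cells of the host.

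Beads first removed CD45+ and EpCAM+ cells, and live cells with podoplanin (PDPN) but without CD45, CD31 or EpCAM on their surface were then sorted. Their poly(A) RNA was read from its 3' end. The comparison asked how fibroblasts differ when the cancer cells beside them carry a hairpin against Brca2. Total counts ran from 1898679 in shBrca2 replicate 3 to 5990579 in shBrca2 replicate 2, and the groups overlapped in depth. For Brca2 itself the normalized count was 12.9 ± 4.18 with shControl and 12.2 ± 2.56 with shBrca2 (SD, n = 3 and 4), which does not measure the knockdown because the hairpin was in the cancer cells. Of the fibroblast markers, Pdgfra, Col1a1, Dcn and Pdpn were counted in every library, with Pdgfra between 549 and 688 normalized counts. Dcn and Pdpn had lower means with shBrca2, and their values are given below. Markers of other cells were also counted, and their values stand beside the results below. Whether cancer cells with the hairpin were among the sorted cells was not tested. RNA was pooled over the cells of a sort, so fewer cells of a type and less RNA per cell cannot be told apart.

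Cells read oxygen through enzymes that consume it. The prolyl hydroxylases EGLN1 (PHD2), EGLN2 (PHD1) and EGLN3 (PHD3) use oxygen and 2-oxoglutarate to hydroxylate prolines of the HIF alpha subunits, and VHL then recognizes the hydroxylated protein and has it degraded. The asparaginyl hydroxylase HIF1AN (FIH) instead blocks the binding of coactivators. When oxygen is low the alpha subunits HIF1A and EPAS1 (HIF-2 alpha) persist, pair with ARNT and bind DNA at hypoxia response elements, whose core is ACGTG or GCGTG, to raise genes of glycolysis, acid handling and angiogenesis. Since this control acts on protein, the level of a HIF transcript does not measure HIF activity. Egln1 and Egln3 are themselves HIF targets, whereas Egln2 is not known as one, and HIF3A has forms that restrain the others.

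The promoters of the EGLN genes are shown because Egln3 was the only one of them called below. RefSeq promoters (GRCm38.p6, the assembly of the submitters' mm10) run from 250 bases before to 50 bases after an annotated start, and they were found for 8 of the 9 genes. The first 280 of the 300 bases are printed here, 5′ to 3′ on the gene's strand, with the cores ACGTG and GCGTG, or their reverse complements, in capitals. The windows printed are chr12:54203845-54204124 for Egln3, chr8:124949225-124949504 for Egln1 and chr7:27166773-27167052 for the upstream start of Egln2, all on the minus strand.
Egln3: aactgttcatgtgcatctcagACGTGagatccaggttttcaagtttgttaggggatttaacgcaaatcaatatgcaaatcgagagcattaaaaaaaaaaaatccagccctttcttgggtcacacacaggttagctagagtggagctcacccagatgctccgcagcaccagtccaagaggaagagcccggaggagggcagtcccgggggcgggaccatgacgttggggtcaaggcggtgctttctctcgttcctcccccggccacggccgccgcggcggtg
Egln1: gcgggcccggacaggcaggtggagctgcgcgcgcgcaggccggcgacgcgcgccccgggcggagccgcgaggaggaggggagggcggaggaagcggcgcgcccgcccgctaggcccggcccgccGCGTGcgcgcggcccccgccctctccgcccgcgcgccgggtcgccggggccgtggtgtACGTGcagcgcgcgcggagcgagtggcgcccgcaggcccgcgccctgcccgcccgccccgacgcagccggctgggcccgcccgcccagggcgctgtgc
Egln2: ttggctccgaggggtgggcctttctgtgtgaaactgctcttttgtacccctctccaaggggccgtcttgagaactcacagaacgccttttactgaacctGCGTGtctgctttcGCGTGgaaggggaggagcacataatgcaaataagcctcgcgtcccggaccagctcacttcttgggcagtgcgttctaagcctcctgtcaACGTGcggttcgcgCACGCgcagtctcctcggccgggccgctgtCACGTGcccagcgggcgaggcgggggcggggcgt
The Egln3 window held 1 core, an ACGTG whose first base was at position -229 from the start. The Egln1 window held 2, a GCGTG at -126 and an ACGTG at -68. The upstream Egln2 window held 6 matches, 2 of which were the opposite strands of a single CACGTG, and a second annotated Egln2 start had 1 match. Hif1a had 3 matches, of which 2 were again one CACGTG read on both strands, Hif3a had 2, Arnt had 1, and Hif1an and Vhl had none in these windows. A core is short, and 43.8% of all 32851 RefSeq promoters of 300 bases held at least 1 of the 2 forms (ACGTG in 19.6%, GCGTG in 32.4%, both strands searched). Of the 3 windows printed, that of Egln3 had the fewest matches.

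Between the groups, 2 of the 9 genes differed. Egln3 was 6.38-fold higher and Epas1 2.51-fold lower in shBrca2 than in shControl CAFs, and the other 7 were not called. A gene was called when its adjusted p in DESeq2's likelihood ratio test was under 0.1, its log2 fold change was over 0.5 in size and its mean normalized count was over 5. Over all 12768 genes tested, 9.04% were called, 3.77% higher and 5.27% lower. The 9 genes gave 1 called higher and 1 called lower. Groups that did not overlap were found for 7.79% of all genes with shBrca2 higher and 9.30% with shBrca2 lower, 17.1% in all, and for 2 (Egln3 and Hif3a) and 1 (Epas1) of the 9 genes. An unadjusted p under 0.05 was found for 3 of the 9, the third being Hif3a, and for 2262 of all 12768 genes. The median log2 fold change of the 9 genes was 0.12, against 0.01 over all genes tested. Of the 9, 5 lay above 0, as did 6492 of the 12768. Their summed normalized count was 1450 to 1627 in shControl and 1446 to 1800 in shBrca2 libraries, so the sums overlapped while single members moved apart. Values per library are given below in the order of replicates 1, 2 and 4 for the controls and 1 to 4 for shBrca2.

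**Figure D1:**
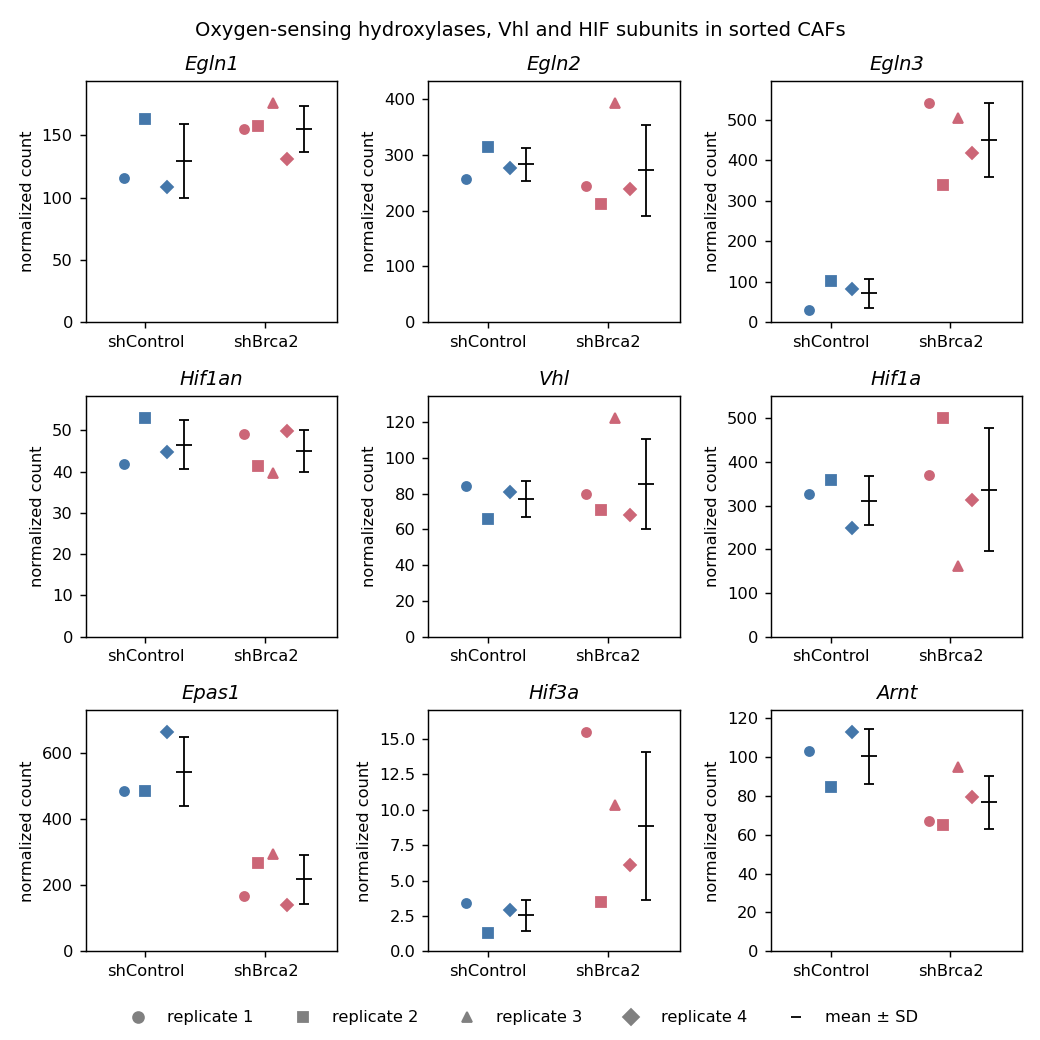
Normalized count of each gene (y axis, from 0) in each library, by group, with the marker shape giving the replicate number and the bar the mean ± SD of the group. All 4 shBrca2 libraries lie above all 3 shControl libraries for Egln3 and below them for Epas1, while the groups overlap for Egln1, Egln2, Hif1an, Vhl, Hif1a and Arnt.

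Egln3, on chromosome 12 (54178981 to 54203874, minus strand), encodes the prolyl hydroxylase whose transcript is among the most strongly induced by HIF in many cells. The controls had 30.8, 101 and 81.7 normalized counts and the shBrca2 libraries 541, 338, 504 and 418. The groups were far apart, with the lowest shBrca2 library 3.34 times the highest shControl library. The mean rose from 71.2 ± 36.4 (SD, n = 3) to 450 ± 91.0 (SD, n = 4), a log2 fold change of 2.67 ± 0.33 (SE) at an adjusted p of 5.3e-11 in DESeq2, the 9th smallest p of all genes. The 95% interval of the log2 fold change ran from 2.03 to 3.31. The spread was wider among the controls, where the highest library was 3.29 times the lowest, than among the shBrca2 libraries, where it was 1.6 times. Raw counts behind these values were 36 to 84 in the controls and 292 to 629 in the shBrca2 libraries.

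Epithelial markers moved in the same direction as Egln3. Of 10 epithelial markers, 8 were in the table. Of these, 5 were called higher (Elf3, Krt8, Krt18, Krt7 and Krt19), against 3.77% of all genes. The 8 summed to 414 to 1166 normalized counts in shControl and 1472 to 2083 in shBrca2 libraries. The count called was 3 when shControl replicate 1, shControl replicate 2, shBrca2 replicate 1 or shBrca2 replicate 4 was left out. Epcam and Cldn4, which help define epithelium, were not in the table, and Cdh1 was low, at 0.85 to 6.33 normalized counts in shControl and 6.91 to 17.3 in shBrca2 libraries. Pericyte markers summed to 532 to 969 in shControl and 1055 to 1260 in shBrca2 libraries. Of 7 in the table, Ndufa4l2, which is also a listed HIF target, and Notch3 were called higher, and 1 was called without shControl replicate 4. Ndufa4l2 alone had a mean of 287 normalized counts in shControl and 732 in shBrca2 CAFs. The defining marker Rgs5 was at 0.85 to 8.86 and 1.73 to 6.88. Kcnj8 and Abcc9, also defining markers, had log2 fold changes of -0.13 and -0.32 and were not called. Only 1 of 6 erythroid markers was in the table, and this gene, Alas2, was at 3.42 to 10.7 normalized counts in shControl and 44.9 to 85.2 in shBrca2 libraries. The defining markers Hba-a1 and Hbb-bs were not in the table. The largest of the keratin differences by test was that of Krt8 (log2 fold change 1.58, adjusted p in DESeq2 1.7e-07).

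Immune markers moved with Egln3 in part. Of 10, 6 were in the table and 2 were called higher, against 3.77% of all genes. The 6 summed to 576 to 1947 normalized counts in shControl and 1269 to 2302 in shBrca2 libraries, with overlap. Log2 fold changes lay above 0 for 3 of the 6 and below 0 for Cd68 (-0.32), Lyz2 (-0.26) and Cd52 (-0.69), none called lower. Csf1r, the receptor of a macrophage growth factor, had 102, 149 and 86.6 normalized counts with shControl, against 226, 240.1, 276 and 250.03 with shBrca2 (log2 fold change 1.15, adjusted p in DESeq2 2.7e-05). C1qa, a complement subunit of macrophages, had an adjusted p of 0.092, and only 1 marker was called by edgeR or without shControl replicate 1, shControl replicate 2, shBrca2 replicate 1, shBrca2 replicate 2 or shBrca2 replicate 4. Of the defining markers, Ptprc was not in the table, Lyz2 was at 35.4 to 62.3 in shControl and 19.0 to 54.2 in shBrca2 libraries, and Cd74 at 278 to 1686 and 873 to 1890.3. Mesothelial markers summed to 904 to 2965 in shControl and 1997 to 2632 in shBrca2 libraries, and of 7 in the table DESeq2 and edgeR called none (1 had an unadjusted p under 0.05), but 4 were called higher without shControl replicate 4. The defining marker Msln had 96.5, 397 and 519 normalized counts with shControl and 558 to 665 with shBrca2, without overlap (log2 fold change 0.89, adjusted p in DESeq2 0.438). Upk3b and Lrrn4, also defining markers, had log2 fold changes of -0.40 and -0.09, each with overlap between the groups. The part of any of these cells in the Egln3 difference was not tested.

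Egln1, on chromosome 8 (124908587 to 124949254, minus strand), encodes the main oxygen sensor of most tissues. Its normalized counts were 116, 163 and 109 with shControl, against 155, 158, 176 and 131 with shBrca2. The groups overlapped, because shControl replicate 2 lay within the shBrca2 range. They differed by a log2 fold change of 0.26 ± 0.22 (SE; adjusted p in DESeq2 0.60). The 95% interval, from 0.896-fold to 1.61-fold, leaves out a change of the size of Egln3.

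Egln2, on chromosome 7 (27158658 to 27166802, minus strand), encodes the third prolyl hydroxylase of the family. Normalized counts of 258, 315 and 277 in the controls stood against 244, 213, 394 and 240 in the shBrca2 libraries. In shBrca2 CAFs 1 library, replicate 3, stood above all controls and the other 3 stood below them. A log2 fold change of -0.07 ± 0.23 (SE) had a 95% interval from -0.52 to 0.39 (adjusted p in DESeq2 0.932), and its sign turned when shControl replicate 2 or shBrca2 replicate 2 was left out. The counts cannot be told apart from those of Cyp2t4 on the opposite strand where the exons overlap, over 1620 of 7795 exon bases in GENCODE on GRCm39, since the strand setting of the counting is not given in the sources used here.

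Hif1an, on chromosome 19 (44562854 to 44576274, plus strand), encodes the hydroxylase that controls the transactivation domain rather than the stability of HIF alpha. With shControl it had 41.9, 53.1 and 44.7 normalized counts and with shBrca2 49.1, 41.4, 39.7 and 49.8, so that the groups covered almost the same range. Their log2 fold change was -0.04 (SE 0.27, 95% interval -0.56 to 0.49, adjusted p in DESeq2 0.957). Raw counts were 23 to 71 per library.

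The changes of the prolyl hydroxylases were also compared within each library, which takes the library's own depth out of the comparison. The ratio of Egln3 to Egln1 counts was 0.270, 0.623 and 0.752 in the controls, against 3.48, 2.14, 2.84 and 3.17 with shBrca2. It was thus below 1 in every control and above 1 in every shBrca2 library, and the mean log2 ratio went from -0.99 ± 0.79 to 1.52 ± 0.31 (SD), a difference of 2.51. The ratio of Egln3 to Egln2 was 0.122 to 0.324 in the controls and 1.28 to 2.21 in the shBrca2 libraries, a difference of 2.88 in log2 ratio, again with no overlap. In an exact two-sided permutation test over the 35 divisions of the 7 libraries, both had p = 0.0571, the smallest p this design allows, and 0.0856 after Benjamini-Hochberg adjustment over 3 ratios. The ratios were of 3' end counts and were read only as a change between groups, not as a ranking of enzyme levels.

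**Figure D2:**
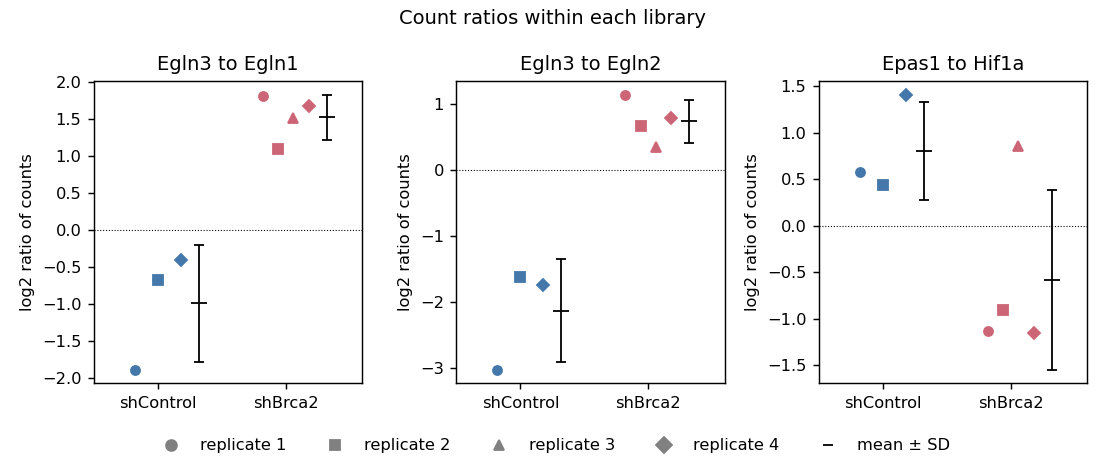
Log2 ratio of counts within each library (y axis; 1 was added to each count) for Egln3 to Egln1, Egln3 to Egln2 and Epas1 to Hif1a, by group, with the mean ± SD. The Egln3 ratios do not overlap between the groups, and in the Epas1 to Hif1a ratio shBrca2 replicate 3 lies among the controls.

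Vhl, on chromosome 6 (113623994 to 113631634, plus strand), encodes the subunit that recognizes hydroxylated HIF alpha. The controls had 84.6, 65.8 and 80.7 normalized counts, and the shBrca2 libraries 80.03, 71.1, 123 and 68.1. Apart from the high value of shBrca2 replicate 3, the groups lay over each other. Vhl had a log2 fold change of 0.12 (SE 0.26, 95% interval -0.40 to 0.63, adjusted p in DESeq2 0.893), and it was -0.08 without that library.

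Among the alpha subunits, Epas1 fell, Hif1a was not called and Hif3a was near the detection limit. Epas1, on chromosome 17 (86753864 to 86833410, plus strand), encodes HIF-2 alpha, best known from endothelium and from interstitial cells that make erythropoietin. The controls had 485, 485 and 664 normalized counts and the shBrca2 libraries 169, 268, 295 and 140.3. The lowest control was 1.64 times the highest shBrca2 library. The mean fell from 545 ± 104 (SD, n = 3) to 218 ± 75.2 (SD, n = 4), a log2 fold change of -1.33 ± 0.27 (SE), with a 95% interval from -1.85 to -0.80 and an adjusted p of 7.0e-05 in DESeq2.

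Endothelial cells are known to express Epas1, and their markers were counted too. Of 10 endothelial markers 6 were in the table, and they summed to 98.2 to 226 normalized counts in shControl and 183 to 247 in shBrca2 libraries. The sums overlapped, and DESeq2 called no endothelial marker in either direction, with 2 at an unadjusted p under 0.05 and 1 called lower by edgeR. However, 3 of the 6 (Pecam1, Tek and Vwf) lay lower in every shBrca2 library than in every control, as Epas1 did, against 9.30% of all genes. The defining marker Pecam1 was at 1.95 to 17.7 in shControl and 0 to 1.72 in shBrca2 libraries (log2 fold change -3.60, adjusted p in DESeq2 0.031), with a mean under the 5 counts a call needs, and Cdh5 was not in the table. Tek was at 7.59 to 28.2 and 4.08 to 7.11, and Vwf at 5.06 to 7.78 and 1.75 to 4.30, while Kdr and Esam, which make up most of the sum, had log2 fold changes of 0.51 and 0.81 and were not called. The part of endothelial cells in the Epas1 difference was not tested.

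Of the 10 fibroblast markers, 2 were called lower, against 5.27% of all genes, and none higher, with a median log2 fold change of -0.09. Those called were Lum (log2 fold change -1.18, adjusted p in DESeq2 0.015) and Dcn (-0.77, 0.069), both small proteoglycans of the matrix. Both calls depended on the libraries used, and neither was made without shControl replicate 1. The summed count of the 10 markers was 125620 to 144438 in shControl and 100464 to 120032 in shBrca2 libraries, mostly from Col3a1 and Col1a2, neither of which was called. Pdgfra had a log2 fold change of 0.01 and Col1a1 of -0.04. Pdpn, on which the cells were sorted, was not called at -0.25 (adjusted p in DESeq2 0.421). Its mean was 641 normalized counts in shControl and 539 in shBrca2 CAFs. It was the only marker of the 10 whose groups did not overlap, with shBrca2 lower, against 9.30% of all genes. The part of a shift among fibroblasts in the Epas1 difference was not tested.

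Hif1a, on chromosome 12 (73901324 to 73947554, plus strand), encodes the alpha subunit that most cells use. Normalized counts were 326, 358 and 250.01 with shControl, against 370.04, 502, 162 and 314 with shBrca2. The shBrca2 libraries enclosed the controls, with replicate 2 above and replicate 3 below all of them, and the highest was 3.09 times the lowest, against 1.43 times among the controls. Hif1a had a log2 fold change of 0.12 ± 0.31 (SE; adjusted p in DESeq2 0.91). The 95% interval from 0.713-fold to 1.66-fold marks what these libraries could not resolve.

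The ratio of Epas1 to Hif1a counts was 1.49, 1.35 and 2.65 in the controls. In shBrca2 replicates 1, 2 and 4 it was 0.457, 0.535 and 0.448, and in replicate 3 it was 1.81. The ratio was above 1 in every control and below 1 in 3 of 4 shBrca2 libraries, while shBrca2 replicate 3 lay within the control range. Mean log2 ratios were 0.80 ± 0.53 and -0.58 ± 0.97 (SD), and the difference of -1.39 had p = 0.171 in the exact permutation test, adjusted or not. Without shBrca2 replicate 3 it was -1.87, with no overlap between the groups and p = 0.1 in the exact permutation test, the smallest that 3 libraries against 3 allow. Over all 7 libraries, Epas1 was called and Hif1a was not, but their ratio overlapped between the groups. With 7 libraries this permutation test cannot give a p under 0.0571, so whether the 2 subunits differed in their change was not settled.

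Hif3a, on chromosome 7 (17030993 to 17062427, minus strand), was counted 4, 1 and 3 times in the controls and 18, 6, 6 and 6 times in the shBrca2 libraries. These were 1.27 to 3.42 normalized counts in the controls and 3.50 to 15.5 in the shBrca2 libraries, where replicate 1 was highest. The groups did not overlap, but the lowest shBrca2 library was only 1.02 times the highest control. A log2 fold change of 1.73 ± 0.82 (SE) had a 95% interval from 0.12 to 3.34, and Hif3a was not called (adjusted p in DESeq2 0.219).

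Arnt, on chromosome 3 (95434367 to 95497240, plus strand), encodes the shared beta subunit, which is not regulated by oxygen. It had 103, 84.8 and 113 normalized counts with shControl, against 67.1, 65.3, 94.99 and 79.3 with shBrca2. shBrca2 replicate 3 lay within the control range and the other 3 below it. The difference was -0.42 ± 0.23 (SE) in log2 fold change, with a 95% interval from -0.87 to 0.04 (adjusted p in DESeq2 0.346).

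**Figure D3:**
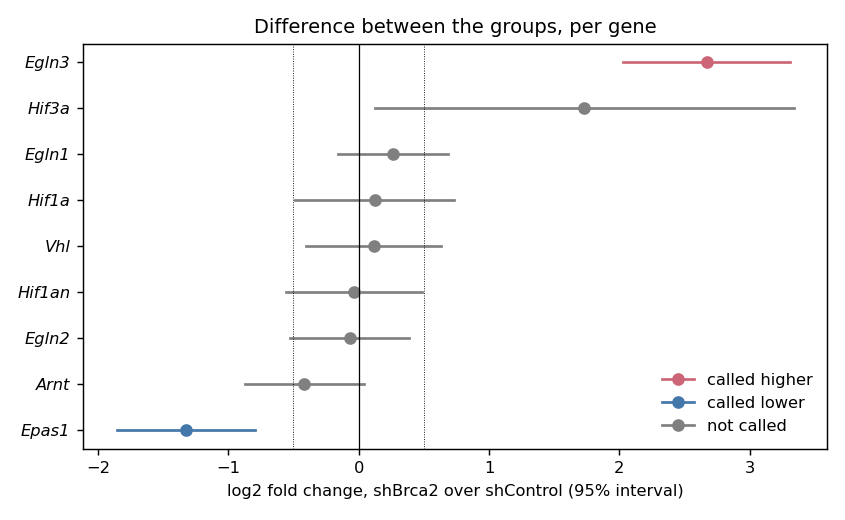
Log2 fold change of each gene, shBrca2 over shControl (x axis), with its 95% interval from DESeq2, and dotted lines at the 0.5 that a call requires. Egln3 at 2.67 and Epas1 at -1.33 lie beyond the lines with their whole interval, and Hif3a has the widest interval.

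Across the members, shBrca2 replicate 3, the shallowest library, had the highest value of its group for Egln1, Egln2, Vhl, Epas1 and Arnt and the lowest for Hif1a and Hif1an. Leaving it out changed neither call, with a log2 fold change of 2.61 for Egln3 and -1.50 for Epas1. When each of the 7 libraries was left out in turn, Egln3 stayed between 2.30 (without shControl replicate 1) and 3.01 (without shControl replicate 2), and Epas1 between -1.50 and -1.16. Both were called in all 7 cases, and each of the other 7 genes was called in none.

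**Figure D4:**
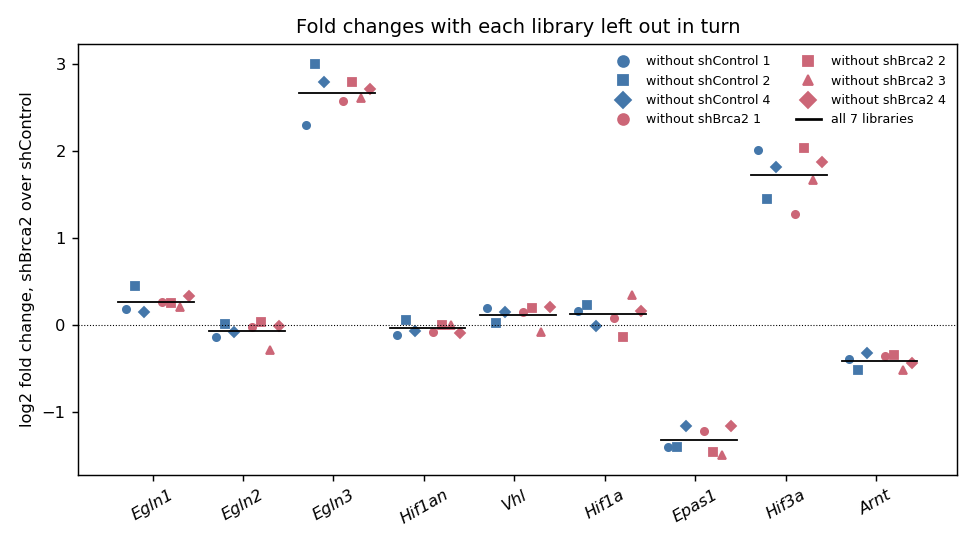
Log2 fold change of each gene (y axis) with each library left out in turn (points, blue for a control and red for an shBrca2 library, shape for the replicate) and with all 7 libraries (black bar). Egln3 stays between 2.30 and 3.01 and Epas1 between -1.50 and -1.16, and the points of Egln2, Hif1an, Vhl and Hif1a fall on both sides of 0.

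The genes around the sensors were then counted in lists, some of which share genes. None of the 16 genes that work with VHL or otherwise govern HIF turnover was called by DESeq2 or by edgeR. None had an unadjusted p under 0.05. Over all genes DESeq2 called 9.04%, and 2262 of 12768 had such a p. The groups did not overlap for 2 of the 16 with shBrca2 higher and for 1, Eloc, with shBrca2 lower, against 17.1% of all genes. The 16 include Elob, Eloc, Cul2 and Rbx1, which form the ligase with VHL, and Siah2, which degrades EGLN enzymes. Eloc had the lowest adjusted p of the ligase subunits other than Vhl, 0.431, with 157 normalized counts in shControl and 128 in shBrca2 CAFs, and Elob had 1463 and 1583. The median log2 fold change of the list was 0.13, against 0.01 over all genes.

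Of 15 HIF partners and coactivators 11 were in the table, with 1 called higher and 1 lower, 18.2% against 9.04% of all genes. The groups did not overlap for 1 with shBrca2 higher and 1 with shBrca2 lower, against 17.1% of all genes. The median log2 fold change of the list was -0.31. Cited2, which competes with HIF for the coactivators CBP and p300 and is itself a HIF target, had 384, 304 and 202 normalized counts with shControl, against 133, 228, 166 and 158 with shBrca2. The groups overlapped, the log2 fold change was -0.79 (SE 0.26, adjusted p in DESeq2 0.042), and the call was lost without shControl replicate 1 (0.351), shBrca2 replicate 1 or shBrca2 replicate 4. The gene called higher was Sim2, a partner of ARNT, named here after its values were seen. It had 1.27 to 1.95 normalized counts in shControl and 2.33 to 17.2 in shBrca2 libraries (log2 fold change 2.79, SE 0.92, adjusted p 0.030 in DESeq2), and this call was lost without each of the same 3 libraries. The coactivator Ep300, encoding p300, had a log2 fold change of -0.09.

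The EGLN proteins belong to a large family of 2-oxoglutarate oxygenases, of which the rest had a smaller share called than all genes. Of 57 listed members 50 were in the table. DESeq2 called 2% of the 50, against 9.04% of all genes, with none higher (edgeR called 1). Of the 50, 8 had an unadjusted p under 0.05, as had 2262 of all 12768 genes. The groups did not overlap for 7 with shBrca2 higher and 3 with shBrca2 lower, against 17.1% of all genes in both directions. The single gene called lower was P3h3, a collagen prolyl hydroxylase of the endoplasmic reticulum, which went from 786 ± 44.1 to 536 ± 71.2 normalized counts with no overlap between the groups (log2 fold change -0.56, SE 0.16, adjusted p in DESeq2 0.0092). Its call was lost without shControl replicate 1 (0.123), shBrca2 replicate 1 or shBrca2 replicate 4. The median log2 fold change of the family was 0.00. The collagen hydroxylases that HIF is known to induce had log2 fold changes of -0.01 (P4ha1), -0.17 (P4ha2) and -0.24 (Plod2), and none was called.

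Of the 4 pathway lists, the HIF target genes had the largest share called. Of 57 listed targets other than the members 53 were in the table, and 17 were called higher and 2 lower, 35.8% in all against 9.04% of all genes. The median log2 fold change was 0.53 and 42 of the 53 lay above 0. With shControl replicate 1 left out 10 were called higher, and with shControl replicate 2 left out 28. This list was written with results of these data already known, so its count is not independent evidence of a direction. The summed counts did not overlap between the groups, at 25027 to 32974 in shControl and 33570 to 41900 in shBrca2 libraries. The same held for the VHL ligase and HIF turnover list, of which no gene was called, at 14086 to 15729 and 15882 to 17000. A sum without overlap thus did not set the targets apart.

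Of the targets called higher, Car9, which encodes a carbonic anhydrase that exports acid and is a classical marker of hypoxia, had 6.83, 32.9 and 26.3 normalized counts with shControl. With shBrca2 it had 213, 177, 166 and 219.5, every one of them far above the highest control. Its log2 fold change was 3.18 ± 0.35 (SE; adjusted p in DESeq2 4.7e-14). Bnip3, a mitophagy receptor, rose from 73.7 ± 14.04 to 231 ± 29.9 (log2 fold change 1.67, SE 0.22, adjusted p in DESeq2 5.3e-11), again without overlap. Ero1l, an oxidase of protein folding, rose from 6.79 ± 0.806 to 36.3 ± 14.7 (2.47, 0.49, 2.8e-05 in DESeq2).

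Car12, a second membrane carbonic anhydrase, had normalized counts of 7.69, 60.7 and 6.81 with shControl and of 96.8 to 173 with shBrca2. Its log2 fold change of 2.45 (SE 0.85, adjusted p in DESeq2 0.085) was lowered by shControl replicate 2, the high control, without which it was 4.2. The call was lost whenever any other single library was left out. The remaining targets called higher were Hilpda, Slc2a3, Ndufa4l2, Ankrd37, Slc2a1, Gbe1, Hmox1, Vegfa, Mxi1, Ddit4, Tpi1, Bhlhe40 and Ndrg1, named after their values were seen to complete the count, with log2 fold changes from 1.62 (Hilpda) down to 0.61 (Ndrg1). They include the glucose transporters Slc2a1 and Slc2a3 and the angiogenic factor Vegfa. Gapdh, Pgk1 and Pgam1 have near-identical copies in the genome, so their counts are uncertain, and none was called.

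The 2 targets called lower are both secreted signals. Adm, which encodes the vasodilator adrenomedullin, had 534, 350.4 and 493 normalized counts with shControl, against 115, 288, 168 and 175 with shBrca2. The groups did not overlap, and the log2 fold change was -1.30 (SE 0.29, adjusted p in DESeq2 0.00045). Cxcl12, a chemokine of fibroblasts, went from 3326 ± 1014 to 1811 ± 489 with overlap (-0.88, 0.26, 0.015 in DESeq2), and was not called without shControl replicate 1.

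**Figure D5:**
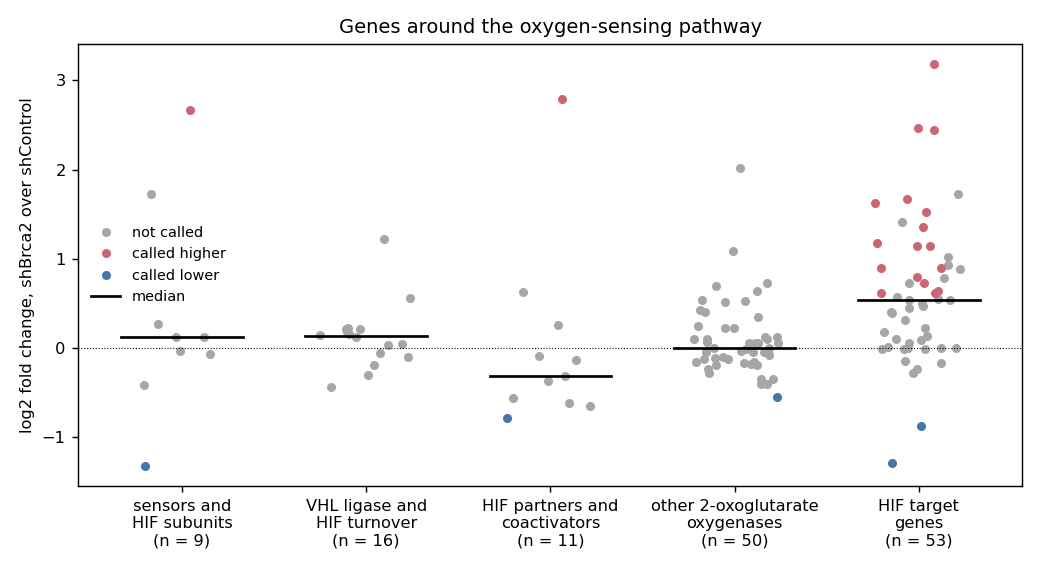
Log2 fold change, shBrca2 over shControl (y axis), of each gene of 5 lists (points, red called higher, blue called lower, grey not called) with the list's median as a bar. The median of the HIF target genes is 0.53, those of the sensors, the VHL ligase list and the other 2-oxoglutarate oxygenases lie between 0.00 and 0.13, and that of the partners is -0.31.

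The genes whose levels followed Egln3 and Epas1 most closely were taken from 8095 genes with a mean normalized count over 30, by Pearson's r of log2(normalized count + 1) over the 7 libraries. These r values describe 7 libraries that fall into 2 groups and share their depth and size factors. For Egln3 the closest were Aqp5, a water channel (r = 0.996), Klc3, a kinesin light chain (0.992), Tceal3 (0.990), Car9 (0.990) and Zdhhc12 (0.988). After each group's mean was taken off, r was 0.981 for Aqp5 and between 0.919 and 0.935 for the other 4. All 5 were called higher, with log2 fold changes from 0.70 for Zdhhc12 to 3.18 for Car9, but Zdhhc12 was not called without shControl replicate 1 or without shBrca2 replicate 1. Aqp5 had 41.8 normalized counts in shControl and 144 in shBrca2 CAFs. Klc3 shares 1675 of its 4875 exon bases with Ercc2 on the opposite strand.

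For Epas1 the closest were C3, the central complement component (r = 0.995), Mavs, an adaptor of antiviral signaling (0.993), Fam102a (0.990), C4b, a further complement component (0.989), and Il27ra, a cytokine receptor (0.988). Within groups r was 0.945 to 0.981. C3 fell from 44706 to 16804 normalized counts (log2 fold change -1.41, adjusted p in DESeq2 7.3e-05) and C4b from 7623 to 2210 (-1.79, 1.6e-08). Il27ra was called lower at -1.47 and Fam102a at -0.67, the latter not without shControl replicate 1, shControl replicate 4, shBrca2 replicate 1 or shBrca2 replicate 4. Mavs had a log2 fold change of only -0.34 and was not called, so a close pattern did not need a change of like size.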

How the data were processed

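CAF libraries from 3 shControl and 4 shBrca2 tumors were prepared by a variant of MARS-seq, which reads the 3' end of transcripts; per the study each library came from 1 mouse. The authors deposited raw counts per gene symbol, whole numbers without normalization, and the submitters' processing notes name bcl2fastq, cutadapt, STAR 2.4.2a, HTSeq, DESeq2 and mm10. Annotation, strand setting and collapsing of molecular barcodes are not given in the sources used here, so counts may include PCR copies and reads of antisense genes. Of the 9 genes, Egln1, Egln2, Vhl and Hif1a share exon bases with a gene on the opposite strand (117, 1620, 9 and 695 bases in GENCODE vM39).

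Groups followed the sample titles. DESeq2 1.42.0 (R 4.3.3) fitted all 12771 genes with median-of-ratios size factors, a likelihood ratio test of group, the test named in the study's methods, and here no covariate. Adjusted p values were taken over all genes, of which 3 received none. Normalized counts are counts divided by size factors. Fold changes are shBrca2 over shControl, unshrunken, and intervals are normal 95% intervals from the standard error. Ratios were log2((count + 1)/(count + 1)) per library, tested by exact permutation. Intervals and p values measure the spread between these libraries.

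The members and lists were chosen with earlier results of these data known. From each pathway list the text names at most 4 called genes per direction with a mean normalized count over 20, largest log2 fold change first, besides those said to be named after their values were seen. It also names the first 3 marker genes of a cell type and the 5 genes most like each called member by Pearson's r. Further markers of a cell type are named outside this rule. Alternatives were the Wald test, edgeR 4.0.16 (quasi-likelihood, TMM), TMM size factors, a filter for at least 10 counts in 3 libraries, no independent filtering, an adjusted p under 0.05, ratio pseudocounts of 0.5 and 5, a replicate block, and each library left out. Code was tested on simulated data. No library pair agreed within sampling noise (lowest mean chi-square per gene 3.18). No column was left unused.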

Additional observations from a re-analysis of the deposited data

Results flagged for a closer look

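In groups of 4 libraries, a library was noted when its gap to the nearest other library, as a share of the group's range, exceeded Dixon's 95% critical value, which chance does in about 1 of 20 groups. Of 24 groups examined, 2 had such a library. The log2 ratio of Epas1 to Hif1a was 0.86 in shBrca2 replicate 3, against -1.13, -0.90 and -1.16 in shBrca2 replicates 1, 2 and 4. The summed normalized count of the fibroblast markers was 120032 in shBrca2 replicate 2, against 100464 to 102353 in the other 3 shBrca2 libraries.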

How the results depend on the processing

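Under 14 alternatives Egln3 (log2 fold change 2.30 to 3.01, adjusted p 5.6e-14 to 0.0026) and Epas1 (-1.53 to -1.16, adjusted p 7.1e-06 to 0.010) kept their direction and call, and no other member was called. Hif3a did not pass the low count filter, and elsewhere its adjusted p was 0.171 to 0.727 where one was given. With a library left out in turn, the sign turned for Egln2 (-0.29 to 0.035, above 0 without shControl replicate 2 or shBrca2 replicate 2), Hif1an (-0.11 to 0.059, above 0 without shControl replicate 2, shBrca2 replicate 2 or shBrca2 replicate 3), Vhl (-0.083 to 0.21, below 0 without shBrca2 replicate 3) and Hif1a (-0.13 to 0.35, below 0 without shControl replicate 4 or shBrca2 replicate 2). The 3 ratios kept their direction, and their permutation test could not pass 0.05 in any setting. The list of partners had 0 called higher under the low count filter and 0 to 2 with a library left out, and 0 to 1 lower; the other oxygenases had 1 called higher by edgeR and 1 under the low count filter, 0 to 1 higher and 0 to 1 lower with a library left out; the HIF targets had 10 to 28 higher and 1 to 2 lower. All genes gave 261 to 610 higher and 354 to 695 lower with a library left out. The cause was not tested.

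No pairing by replicate number was seen. Deviations of same-numbered libraries correlated at -0.114, -0.143 and -0.161, and no shControl library correlated best with its own number. So few pairs cannot exclude a pairing. With a replicate block over replicates 1, 2 and 4 the calls were 242 higher and 322 lower over all genes, 0 and 0 among partners, 17 and 1 among HIF targets, and 1 and 1 among the members (Egln3 2.70, Epas1 -1.53), while the log2 fold changes of Hif1an and Vhl turned to 0.0059 and -0.072. C3 was not called under the block (adjusted p 0.138), nor were Cxcl12 and Cited2. Hif3a, with 8 control counts in all, was limited by depth.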
